A study of Mus musculus with 4 samples.

Results

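The fibrillar collagen genes followed here are Col1a1, Col1a2, Col3a1, Col5a1, Col5a2, Col5a3, Col11a1 and Col24a1. They were chosen by gene symbol alone and are 8 of the 33954 genes counted in each library. RNA was read from single nuclei of mouse hearts with a 10x Genomics kit that captures the 5′ end of transcripts, and every value rests on unique molecular identifiers (UMIs), which count captured molecules. The study crossed genotype with injury. Mice with the Q150X change, a stop-gained allele of Vegfa introduced by genome editing to model a human variant, were set beside wild-type (WT) mice, each 3 days after myocardial infarction (3dpMI) and at homeostasis without infarction. The 4 groups were therefore Q150X 3dpMI, WT 3dpMI, Q150X homeostasis and WT homeostasis, with 1 library each. The titles mark Q150X libraries "ho" and the labels do not spell out the zygosity, the age of the mice or whether hearts were pooled, so neither a shared age nor the number of animals behind a library can be given. Because no group had a second library, no difference between groups could be tested: ratios are given with intervals that cover counting error only, and a ratio past 1.5-fold is named as such.

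Fibrillar collagens are secreted as procollagen trimers, trimmed outside the cell and packed side by side into the banded fibres that carry tension. Type I collagen, a trimer of Col1a1 and Col1a2 chains, is the main fibre of scar and of the normal heart's interstitium, and type III collagen, a homotrimer of Col3a1, forms thinner fibres with it and is laid down early in repair. Type V collagen chains (Col5a1, Col5a2 and Col5a3) and the related Col11a1 chain start fibrils and limit their width, and Col24a1 is a minor fibrillar chain known mainly from developing bone. In the heart, fibroblasts are the main source, and after infarction they become activated fibroblasts, which divide and deposit collagen that keeps the wall from rupturing.

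After removal of nuclei of low quality and of likely doublets, 26152 of 28216 nuclei were kept, with 7364 in Q150X 3dpMI, 8479 in WT 3dpMI, 6142 in Q150X homeostasis and 4167 in WT homeostasis. Depth was uneven: the median nucleus held 2671 and 2029 UMIs in the Q150X and WT 3dpMI libraries, against 968 and 921 UMIs in the Q150X and WT homeostasis libraries. Any pair of libraries shared between 39 and 117 cell barcodes, at most 1.44% of the smaller library. Vegfa transcript counts do not read the edited codon, so the genotype labels were not checked against the data. Fibroblasts numbered 1862, 1863, 3011 and 1492 nuclei in the order above and carried 10 of 10 fibroblast markers in each library. Clusters were made without the 8 collagen genes, so that their levels did not decide which nuclei were called fibroblasts. Levels are given as CPM, the UMIs of a gene in all nuclei of a class per 1000000 UMIs of that class. CPM is not divided by transcript length, so levels are compared between classes and libraries for one gene and not between genes.

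The stretches upstream of the genes are shown because the members divided in how they differed with injury. RefSeq promoter entries of build GRCm38.p6 were found for 6 of the 8 members, all but Col1a1 and Col5a2. The 150 bases before the RefSeq start are given below, 5′ to 3′ on the gene's strand, for Col1a2 and Col3a1, which were many times higher after infarction, for Col11a1, which was nearly without UMIs at homeostasis, and for Col5a3, which was not higher. Capitals mark matches to any of 5 motifs searched on both strands. These were TATAAA, which in many promoters lies a short way before the start, and CCAAT, which is bound by nuclear factor Y. The others were the box GGGCGG, which is bound by Sp1 and its relatives, the element GGAATG, which is known from TEAD factors, and the palindrome TGACGTCA, which answers to cyclic AMP.
Col1a2 (chr6:4505468-4505617, plus strand): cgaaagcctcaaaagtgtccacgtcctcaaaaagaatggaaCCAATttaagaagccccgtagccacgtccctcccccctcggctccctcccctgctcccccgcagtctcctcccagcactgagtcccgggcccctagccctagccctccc
Col3a1 (chr1:45311388-45311537, plus strand): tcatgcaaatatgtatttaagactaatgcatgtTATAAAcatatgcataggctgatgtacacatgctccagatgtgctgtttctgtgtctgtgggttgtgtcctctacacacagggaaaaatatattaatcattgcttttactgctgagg
Col5a3 (chr9:20815068-20815217, minus strand): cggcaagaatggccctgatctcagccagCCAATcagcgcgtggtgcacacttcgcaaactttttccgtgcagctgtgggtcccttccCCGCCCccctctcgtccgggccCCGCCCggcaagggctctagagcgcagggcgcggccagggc
Col11a1 (chr3:114030390-114030539, plus strand): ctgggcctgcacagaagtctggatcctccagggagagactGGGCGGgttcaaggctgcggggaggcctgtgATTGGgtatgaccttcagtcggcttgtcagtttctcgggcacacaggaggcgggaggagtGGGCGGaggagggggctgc

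Col1a2 and Col5a3 each held a CCAAT on the gene's own strand, 109 to 105 and 122 to 118 bases before the start, and Col11a1 held one on the opposite strand, 79 to 75 bases before it. CCAAT occurred in 24.5% of 32851 promoters of the same length. Col5a3 and Col11a1 each held GC boxes at 2 positions and Col5a1 held one, against 28.6% of all promoters with at least one. Col3a1 held a TATAAA 117 to 112 bases before the RefSeq start, as did 7.57% of all promoters, and its window was 37.3% G or C, against a median of 54% over all promoters and 62.7% to 74.7% in the other 5 members with an entry. None of the 5 motifs was in the Col24a1 window. The CCAAT and GC box matches fell both in genes that were higher after infarction and in Col5a3, and they describe letters only.

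Fibroblasts held most of the UMIs of the type I, III and V chains in every library. Of the Col1a1 UMIs, 64.9% and 64.8% were in fibroblasts of the Q150X and WT 3dpMI libraries, and 79.8% and 76.6% in the Q150X and WT homeostasis libraries, although fibroblasts gave 37.2%, 28.2%, 40.4% and 24.4% of all UMIs in those libraries. For Col5a1 the share was more even, at 87.4% and 86.6% in the 3dpMI libraries and 89.6% and 88.8% in the homeostasis libraries. Ranked over the named classes with at least 50 nuclei in a library, which leaves out the Schwann-like nuclei described further on, the CPM was highest in fibroblasts in 25 of 32 pairs of a member and a library. The exceptions were Col5a3 in the libraries where pericytes came first, Col1a1 in the Q150X 3dpMI library, where 121 neutrophil nuclei came first with an interval that overlapped that of fibroblasts, and Col24a1 and Col11a1 at homeostasis, where the leading class rested on 1 to 4 UMIs.

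**Figure D1:**
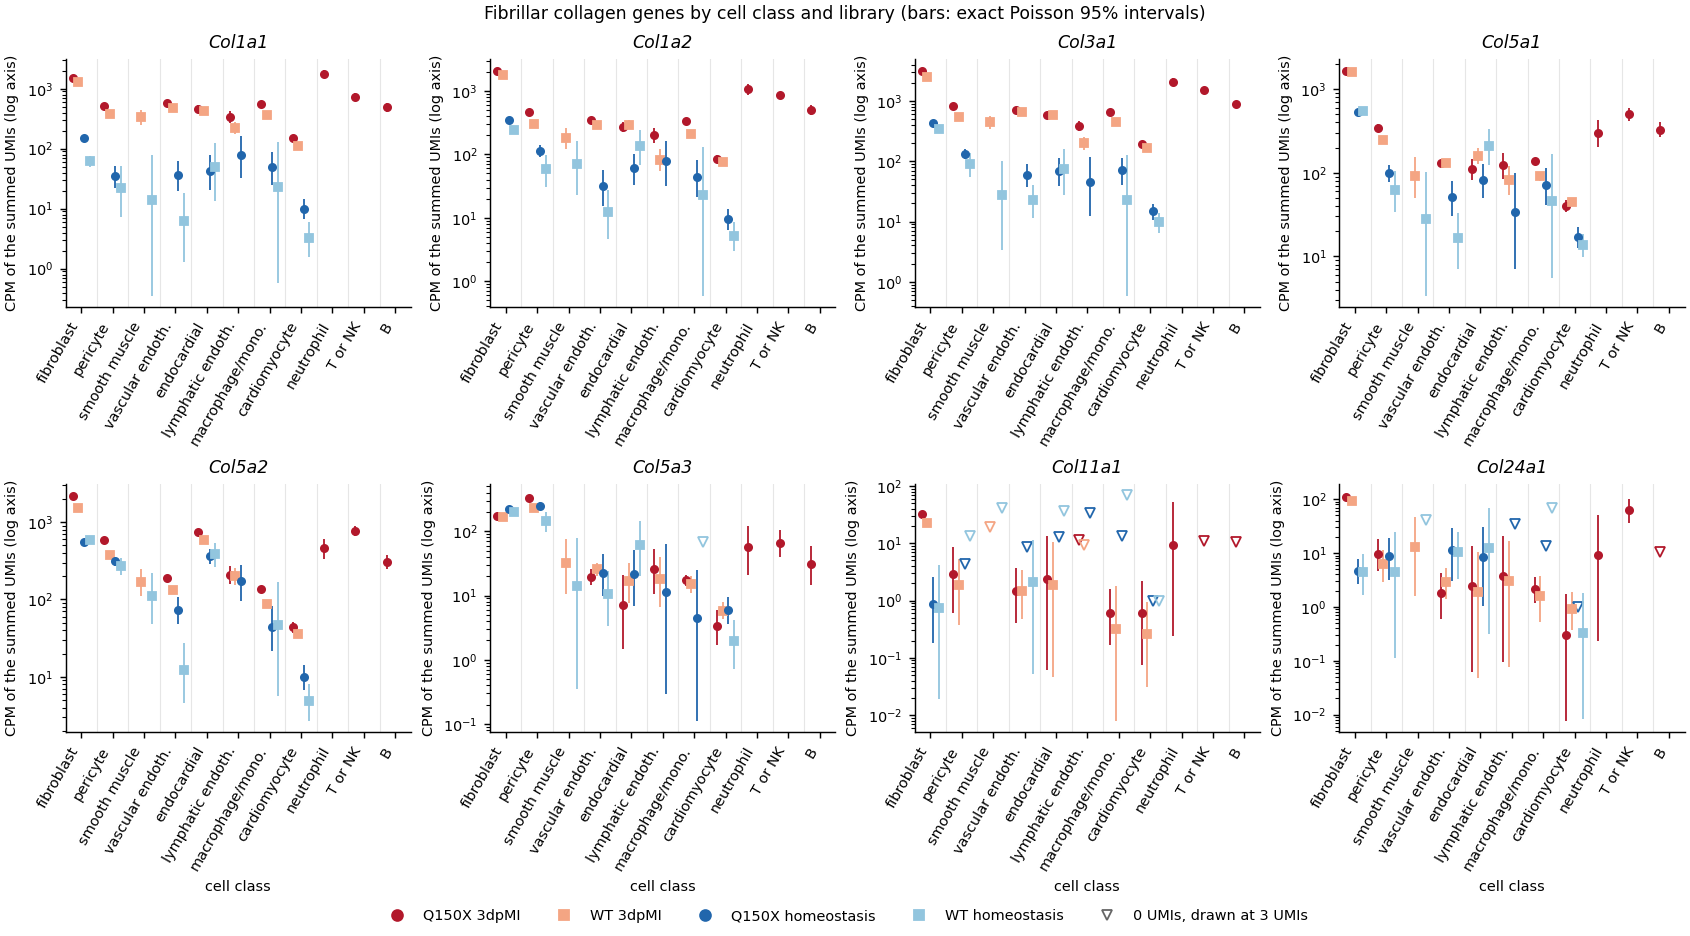
Level of each fibrillar collagen gene by cell class, in CPM on a log axis, with 1 point per library and bars for exact Poisson 95% intervals; open triangles mark classes with 0 UMIs, drawn at the level 3 UMIs would give. Fibroblasts lead for most genes and libraries, while Col5a3 is higher in pericytes in both infarct libraries and overlaps the fibroblast interval in both homeostasis libraries.

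Both type I chains were several times higher in fibroblasts of infarcted than of uninjured hearts, Col1a1 by the wider margin. In fibroblasts Col1a1 (ENSMUSG00000001506) stood at 1491 CPM in Q150X 3dpMI, 1311 CPM in WT 3dpMI, 150 CPM in Q150X homeostasis and 61.2 CPM in WT homeostasis. Col1a2 (ENSMUSG00000029661) stood at 2099, 1781, 353 and 247 CPM in the same order. Both genes were high in both infarct libraries and low in both homeostasis libraries, and no interval of an infarct library overlapped one of a homeostasis library. The 3dpMI over homeostasis ratio of Col1a1 was 9.91 (95% interval 9.07 to 10.8) in Q150X and 21.4 (17.2 to 27) in WT, and that of Col1a2 was 5.94 (5.6 to 6.3) in Q150X and 7.21 (6.47 to 8.07) in WT. The larger Col1a1 ratio in WT went with the lower homeostasis level of WT and not with a higher level after infarction.

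Deeper nuclei show more genes by sampling alone, so the share of fibroblast nuclei with a Col1a1 UMI was also taken after thinning each nucleus to 500 UMIs. The thinned share was 50.1% in Q150X 3dpMI, 36.3% in WT 3dpMI, 7.64% in Q150X homeostasis and 2.95% in WT homeostasis, and unthinned it was 94.7%, 76.7%, 15.3% and 5.09%. Cardiomyocyte nuclei, which should lack the gene, gave thinned shares of 11.6%, 8.91%, 0.479% and 0.256%, so UMIs outside fibroblasts were more frequent in the infarct libraries too. The median cardiomyocyte nucleus held 7780.5, 6140.5, 3029 and 1513 UMIs and the median fibroblast nucleus 5062.5, 2895, 1034 and 760.5 UMIs, and no nucleus was left out by thinning, since all held at least 500.

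Type III collagen showed the same order of libraries. Col3a1 (ENSMUSG00000026043) stood at 3191 CPM in Q150X 3dpMI, 2528 CPM in WT 3dpMI, 425 CPM in Q150X homeostasis and 346 CPM in WT homeostasis. All infarct values lay above all homeostasis values, and the ratio was nearly equal in the genotypes, at 7.51 (7.13 to 7.92) in Q150X and 7.3 (6.66 to 8.02) in WT. A Col3a1 UMI was found in 68.3% and 52.1% of thinned fibroblast nuclei of the Q150X and WT 3dpMI libraries, against 17.9% and 15.5% in the Q150X and WT homeostasis libraries.

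The type V chains split. Col5a1 (ENSMUSG00000026837) stood at 1647, 1598, 530 and 546 CPM in fibroblasts of Q150X 3dpMI, WT 3dpMI, Q150X homeostasis and WT homeostasis. Col5a2 (ENSMUSG00000026042) stood at 2199, 1523, 552 and 582 CPM. Both were higher in the infarct libraries than in the homeostasis libraries without overlap. Their injury ratios were smaller than those of Col1a1, Col1a2 and Col3a1 in the same libraries: 3.11 (2.96 to 3.26) in Q150X and 2.92 (2.71 to 3.16) in WT for Col5a1, and 3.99 (3.8 to 4.18) in Q150X and 2.62 (2.43 to 2.82) in WT for Col5a2. Col5a3 (ENSMUSG00000004098) was the exception among the 8, at 173 and 165 CPM in the Q150X and WT 3dpMI libraries, against 223 and 198 CPM in the Q150X and WT homeostasis libraries. It was lower after infarction in both genotypes, with ratios of 0.775 (0.711 to 0.845) in Q150X and 0.835 (0.73 to 0.957) in WT, neither past 1.5-fold.

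The minor chains were close to undetected without injury. Col11a1 (ENSMUSG00000027966) had 331 fibroblast UMIs in Q150X 3dpMI and 172 in WT 3dpMI, against 3 in Q150X homeostasis and 1 in WT homeostasis, which are 32.9, 22.9, 0.885 and 0.746 CPM. Col24a1 (ENSMUSG00000028197) had 1129 and 698 fibroblast UMIs in the Q150X and WT 3dpMI libraries, against 16 and 6 in the Q150X and WT homeostasis libraries, which are 112, 93.1, 4.72 and 4.48 CPM. Few counts at homeostasis leave the size of the ratios loose: 37.2 (12.6 to 181) in Q150X and 30.7 (5.44 to 1221) in WT for Col11a1, and 23.8 (14.6 to 41.8) in Q150X and 20.8 (9.5 to 56.8) in WT for Col24a1. After infarction these transcripts were almost all in fibroblasts, with 95.4% and 90.5% of Col11a1 UMIs and 90.8% and 93.4% of Col24a1 UMIs in the Q150X and WT libraries.

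In all, 7 of the 8 members were past 1.5-fold higher after infarction in each genotype and none was past 1.5-fold lower. Col11a1 and Col24a1, among these 7, had too few fibroblast UMIs at homeostasis to be counted without their UMIs after infarction. At the depth of these libraries, neither could have entered as past 1.5-fold lower. Over all genes with enough UMIs in fibroblasts, 32.6% were past 1.5-fold higher in Q150X and 37.1% in WT, and 12.1% and 8.99% were past 1.5-fold lower. The median log2 ratio of the members, with Col11a1 and Col24a1 included, was 2.74 in Q150X and 2.86 in WT. Over all genes with enough UMIs it was 0.26 and 0.32. Relative to that shift of the whole transcriptome the Col5a3 ratio was 0.649 in Q150X, past 1.5-fold lower, and 0.671 in WT, and the other 7 members stayed past 1.5-fold higher in both genotypes.

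**Figure D2:**
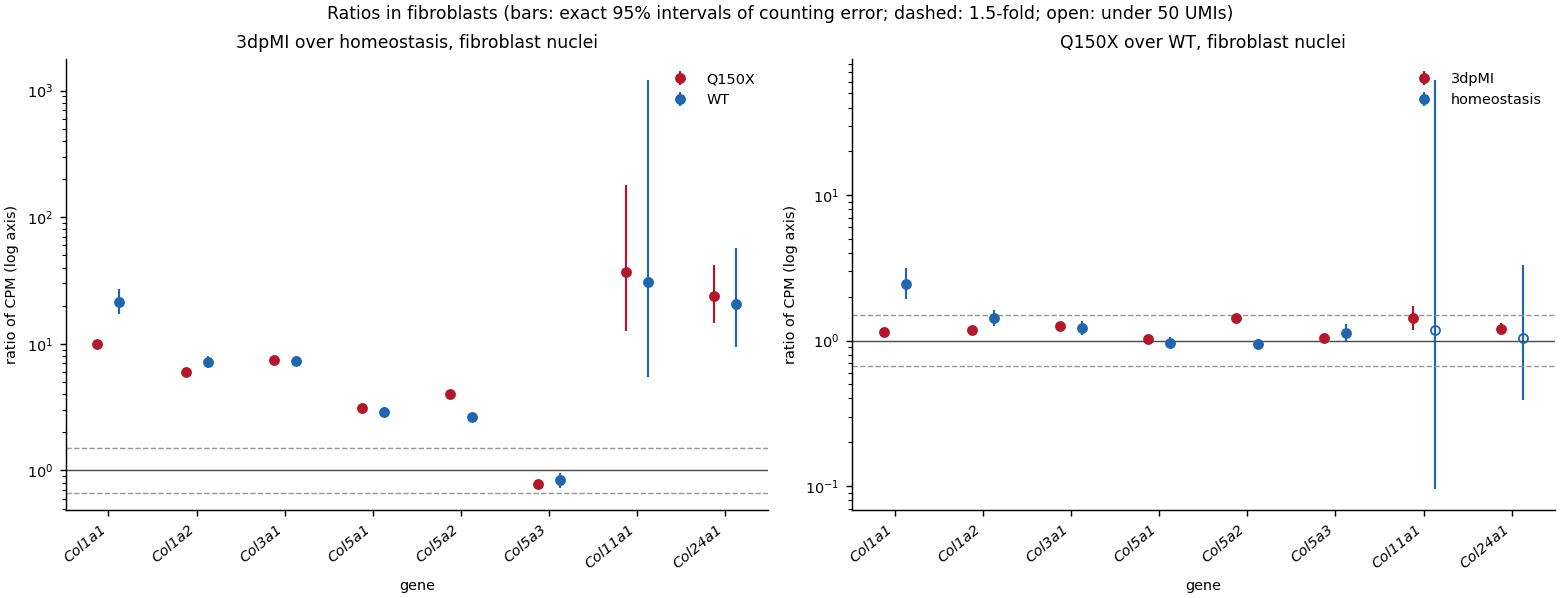
Ratios of fibroblast CPM for each member on a log axis, 3dpMI over homeostasis in Q150X and WT (left) and Q150X over WT at 3dpMI and at homeostasis (right), with exact 95% intervals for counting error; dashed lines mark 1.5-fold and open points rest on fewer than 50 UMIs. All members but Col5a3 lie far above 1.5-fold after infarction, while between genotypes only Col1a1 at homeostasis, at 2.46, lies past it.

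The make-up of the fibroblast class moved with injury. It was built from 5 clusters. Clusters 7 and 8, called activated from markers such as Postn and Cthrc1, made up 85.7% of fibroblast nuclei (84% to 87.2%) in Q150X 3dpMI and 58.7% (56.4% to 60.9%) in WT 3dpMI, against 0.531% in Q150X homeostasis and 0.201% in WT homeostasis. Clusters were drawn on genes that themselves differ between libraries, so these shares say where nuclei were placed. The summed activated-fibroblast markers stood at 8055 and 5815 CPM in the Q150X and WT 3dpMI fibroblasts, with all 8 detected, against 462 and 412 CPM in the Q150X and WT homeostasis fibroblasts, with Cthrc1 at 0. Cluster 0, led by Lvrn, Negr1 and Aldh1a1, held most fibroblasts of the uninjured hearts, and cluster 9 was like adventitial fibroblasts, with Pi16. Cluster 24 held 22 WT 3dpMI nuclei and 1 Q150X 3dpMI nucleus and is not described further.

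Among the fibroblast clusters, the level was highest in an activated cluster in all 16 pairs of a member and a 3dpMI library. For Col5a3 in Q150X 3dpMI the lead was within counting error, at 221 CPM (208 to 235) in cluster 7 and 199 CPM (158 to 248) in cluster 0. The other activated cluster, cluster 8, had Col5a3 at 124 CPM in that library. Cluster 7, which also carried cycling markers at 2034 CPM in Q150X and 2162 CPM in WT, against 172 and 142 CPM in cluster 8, had Col1a1 at 1832 CPM in Q150X 3dpMI and 2006 CPM in WT 3dpMI. Cluster 8, led by genes such as Aldh1a2, Svep1 and Nox4, had Col1a1 at 1257 and 1039 CPM. Cluster 0 of the same infarct libraries had Col1a1 at 820 and 500 CPM.

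The members differed widely in how far they were tied to the activated clusters. Taking the activated clusters together over the other fibroblasts of the same library, the ratio was 10.1 (5.28 to 22.1) in Q150X 3dpMI and 15.5 (9.03 to 29.3) in WT 3dpMI for Col24a1, and 1.02 (0.85 to 1.23) and 1.85 (1.57 to 2.19) for Col5a3. The type I, III and other type V chains lay between, from 1.95 for Col5a1 to 3.11 for Col5a2 in Q150X and from 2.63 for Col5a1 to 4.46 for Col1a2 in WT. Col11a1 had 330 UMIs in activated and 1 UMI in other fibroblasts of Q150X 3dpMI, and a ratio of 8.16 (3.67 to 22.6) in WT 3dpMI.

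The activated clusters also differed from each other. Col24a1 stood at 157 and 144 CPM in cluster 8 of the Q150X and WT 3dpMI libraries, against 84.9 and 95.9 CPM in cluster 7, a ratio of 1.85 (1.63 to 2.1) in Q150X and 1.5 (1.28 to 1.75) in WT. Col24a1 was thus the member that was higher in cluster 8 in both libraries, and it is also among that cluster's leading genes, so this is a description of the cluster. Col3a1 was nearly level, at 3300 and 2877 CPM in cluster 8 against 3335 and 3115 CPM in cluster 7. Col1a1 and Col5a3 leaned to cluster 7, with cluster 8 over cluster 7 ratios of 0.686 and 0.518 for Col1a1 and 0.561 and 0.489 for Col5a3 in Q150X and WT.

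**Figure D3:**
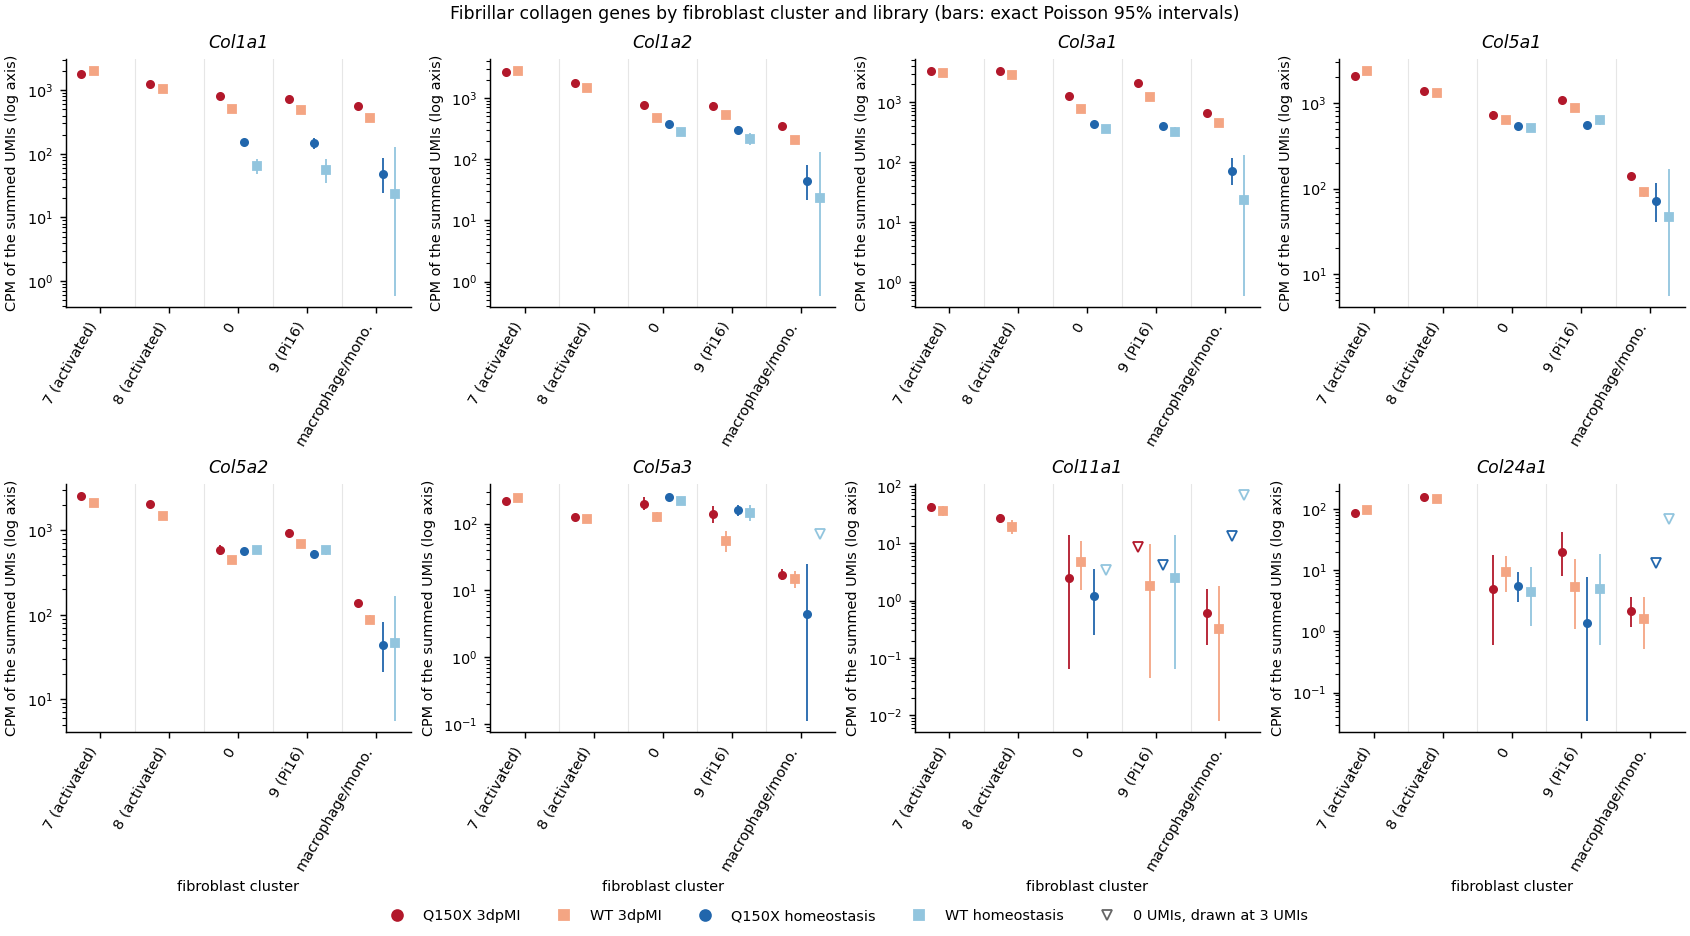
Level of each member in CPM on a log axis in the activated clusters 7 and 8, in the fibroblast clusters 0 and 9 and, for comparison, in macrophages, with 1 point per library and exact Poisson 95% intervals; open triangles mark 0 UMIs. Within each infarct library every member peaks in cluster 7 or 8, Col24a1 in cluster 8, while Col5a3 is lowest in cluster 9 of WT 3dpMI, at 54.9 CPM, and lies between 119 and 247 CPM in the other fibroblast points drawn.

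Within cluster 0, the fibroblasts present in numbers both with and without injury, the injury ratio of Col1a1 was 5.26 in Q150X and 7.82 in WT, of Col3a1 2.86 and 2.12, and of Col1a2 2.09 and 1.71. These 3 members were past 1.5-fold higher, where 17.8% of genes in Q150X and 18.8% in WT were. Col5a1, at 1.34 and 1.23, and Col5a2, at 1.04 and 0.775, were within 1.5-fold in both genotypes. Col5a3 was at 0.807 in Q150X and at 0.578 in WT, past 1.5-fold lower there, as were 5.26% of genes. In cluster 9 the ratios of Col1a1, at 5 and 8.79, Col3a1, at 5.11 and 3.81, and Col1a2, at 2.49 and 2.46, were past 1.5-fold higher in both genotypes, against 11.1% and 11.5% of genes. Col5a1, at 1.96, and Col5a2, at 1.74, were past it in Q150X, with 1.37 and 1.18 in WT. In this cluster Col5a3 was at 0.864 and 0.378, past 1.5-fold lower in WT, as were 8.65% of genes. Macrophage nuclei of the same libraries had a Col1a1 injury ratio of 11.6 in Q150X and 15.7 in WT. How much of the ratio within clusters 0 and 9 is RNA from other cells was not tested.

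Between Q150X and WT at homeostasis, Col1a1 was the member past 1.5-fold in fibroblasts. Fibroblast Col1a1 was 150 CPM (138 to 164) on 510 UMIs in Q150X homeostasis and 61.2 CPM (48.7 to 76) on 82 UMIs in WT homeostasis, a ratio of 2.46 (1.94 to 3.14). Col1a2 was at 353 CPM in Q150X and 247 CPM in WT, a ratio of 1.43 (1.27 to 1.62), and Col3a1 at 425 and 346 CPM, a ratio of 1.23 (1.1 to 1.37). The type V chains lay near equality, at 0.97 (0.89 to 1.06) for Col5a1, 0.948 (0.871 to 1.03) for Col5a2 and 1.13 (0.981 to 1.3) for Col5a3. That is 1 of 6 members past 1.5-fold higher, against 10.8% of all genes higher and 2.19% lower, and Col11a1 and Col24a1 had too few UMIs to enter.

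The Col1a1 ratio was alike in the main fibroblast clusters of uninjured hearts, at 2.44 (1.84 to 3.28) in cluster 0 and 2.65 (1.66 to 4.41) in cluster 9, where 11% and 7.11% of genes were past 1.5-fold higher. Outside fibroblasts Col1a1 was also higher in Q150X homeostasis than in WT homeostasis, on few UMIs: 10 CPM on 30 UMIs and 3.24 CPM on 10 UMIs in cardiomyocytes, a ratio of 3.1, and 36.9 CPM on 13 UMIs and 6.22 CPM on 3 UMIs in vascular endothelium, a ratio of 5.93. In macrophages it was at 48.9 CPM on 11 UMIs in Q150X and 23.1 CPM on 1 UMI in WT, a ratio of 2.12. Markers of other cells differed as well: the 8 cardiomyocyte markers, all detected, summed to 4033 CPM in Q150X fibroblasts and 2575 CPM in WT fibroblasts, and the 10 macrophage markers, 9 detected in each with Ly6c2 at 0 in Q150X and Ccr2 at 0 in WT, summed to 302 and 153 CPM. Their part in the result was not tested. Counting all nuclei together instead of fibroblasts gave 3.91 for Col1a1, 2.31 for Col1a2, 2.02 for Col3a1, 1.59 for Col5a1, 1.66 for Col5a2 and 2.01 for Col5a3, all past 1.5-fold (22.8% of genes), beside fibroblast shares of 49% of nuclei in Q150X and 35.8% in WT.

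After infarction no member was past 1.5-fold between genotypes in fibroblasts, against 4.81% of all genes higher and 4.46% lower. All 8 ratios of Q150X over WT were nevertheless at or above 1: Col5a2 at 1.44 (1.41 to 1.48), Col11a1 at 1.43 (1.19 to 1.74), Col3a1 at 1.26 (1.24 to 1.29), Col24a1 at 1.21 (1.1 to 1.33), Col1a2 at 1.18 (1.15 to 1.2), Col1a1 at 1.14 (1.11 to 1.17), Col5a3 at 1.05 (0.974 to 1.13) and Col5a1 at 1.03 (1.01 to 1.06). Their median log2 ratio was 0.25, against 0.04 over all genes. The share of activated nuclei in these libraries was 85.7% in Q150X and 58.7% in WT. With each fibroblast cluster given the same share in both libraries, the ratios came to between 0.945 for Col5a1 and 1.29 for Col5a2. Over all nuclei together the ratios ran from 1.23 for Col5a3 to 1.81 for Col5a2, with 5 of 8 past 1.5-fold higher (Col1a1 just under it), against 12.3% of genes.

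The direction depended on the cluster for some members. Col3a1 and Col5a2 were higher in Q150X in each of clusters 7, 8, 0 and 9, at ratios of 1.07, 1.15, 1.62 and 1.68 for Col3a1 and 1.22, 1.39, 1.31 and 1.35 for Col5a2. In cluster 7 Col1a1 was at 1832 CPM in Q150X and 2006 CPM in WT, a ratio of 0.913, and Col5a1 was at 2046 and 2340 CPM, a ratio of 0.874. In cluster 8 the same genes were at 1257 and 1039 CPM, a ratio of 1.21, and 1361 and 1317 CPM, a ratio of 1.03. Members past 1.5-fold were found in the clusters outside the activated ones. In cluster 0 Col1a1 was at 820 CPM in Q150X 3dpMI and 500 CPM in WT 3dpMI, a ratio of 1.64 (1.43 to 1.89), with Col1a2 at 1.68, Col3a1 at 1.62 and Col5a3 at 1.59 (1.19 to 2.12), where 6.84% of genes were past 1.5-fold higher, and with Col5a1 at 1.12. The cardiomyocyte markers in these cluster 0 nuclei, 8 of 8 detected in each, summed to 1092 CPM in Q150X and 3029 CPM in WT, the activated markers, 8 of 8 detected in each, to 1000 and 781 CPM, and the cycling markers, 6 of 6, to 112 and 61.7 CPM; their part was not tested. In cluster 9 Col5a3 was at 138 CPM in Q150X and 54.9 CPM in WT, a ratio of 2.51 (1.57 to 4.08), and Col1a1 at 1.51 and Col3a1 at 1.68 were past 1.5-fold too, against 6.5% of genes. Macrophage nuclei of these libraries showed ratios near those of cluster 0 for Col1a1, at 1.56, Col1a2, at 1.66, and Col3a1, at 1.45. For Col5a1, Col5a2 and Col5a3 macrophages had 1.55, 1.57 and 1.16, against 1.12, 1.31 and 1.59 in cluster 0. In macrophages 4.55% of genes were past 1.5-fold higher, and the part of shared free RNA in the cluster 0 values was not tested.

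After infarction Col5a3 was higher in pericytes than in fibroblasts. These cells, the contractile cells on capillaries, had it at 328 CPM (293 to 365) in Q150X 3dpMI, 230 CPM (208 to 255) in WT 3dpMI, 250 CPM (214 to 290) in Q150X homeostasis and 143 CPM (97.7 to 202) in WT homeostasis. These levels were above those of fibroblasts in both infarct libraries, overlapped them in Q150X homeostasis and lay below the fibroblast value of 198 CPM in WT homeostasis, with overlapping intervals. Mural cells gave 14.2%, 20.1%, 17.5% and 10.2% of all Col5a3 UMIs in those libraries, from 3.97%, 6.69%, 8.83% and 5.38% of all UMIs, and at most 4.56% of the UMIs of any other member after infarction.

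Unlike in fibroblasts, Col5a3 in pericytes was higher after infarction, at a ratio of 1.31 (1.09 to 1.58) in Q150X and 1.61 (1.12 to 2.39) in WT, where 23.9% and 31.2% of genes were past 1.5-fold higher. The difference from the fibroblast ratio was not tested over libraries, and the counting intervals do not overlap. With only cluster 3, a pericyte cluster, the WT ratio was 1.22, against 1.91 over all mural nuclei (pericytes and smooth muscle). The mural ratio in Q150X lay between 1.15 and 1.43 under other processing choices. Vascular endothelial markers summed to 1082 CPM in Q150X homeostasis pericytes and 2905 CPM in WT homeostasis pericytes, and their part was not tested. Per Col1a1 UMI, pericytes had 0.64 Col5a3 UMIs (0.556 to 0.735) in Q150X 3dpMI and 0.613 (0.538 to 0.698) in WT 3dpMI, against 0.116 and 0.126 in fibroblasts of these libraries. Between genotypes after infarction, 2 of the 6 members counted in pericytes were past 1.5-fold higher in Q150X, Col1a2 at 1.57 and Col5a2 at 1.58, against 6.59% of genes, and the other 4 lay between 1.36 and 1.49. Macrophages of these libraries had Col1a2 at 1.66 and Col5a2 at 1.57. Over all mural nuclei Col5a2 was 1.62, and 1.18 with thinning. Mural Col1a2 was 1.59, and 1.44 with only the largest cluster. Fibroblast markers stood in these pericytes at 52.4% of their fibroblast level in Q150X 3dpMI and 48% in WT 3dpMI. Col5a3 was at 3.61 and 2.91 times the level that fibroblast RNA spread at that share would give, while the other members were at 0.655 times or less. In the Q150X and WT homeostasis libraries Col5a3 was at 2.47 and 1.79 times it and Col5a2 at 1.24 and 1.14. Col24a1 was at 4.07 and 2.47 there, on 6 UMIs and 1 UMI, and the rest lay below that level. Macrophages of the 3dpMI libraries held the markers at 6.94% and 6.48%, and cardiomyocytes at 21.7% and 22.3%. T or NK nuclei of Q150X 3dpMI held them at 31.3%. The part of spread RNA in the pericyte share was not tested. Whether pericytes made the other members was not tested.

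Endocardial nuclei, from the lining of the heart chambers, had Col5a2 at 735 CPM (655 to 822) in Q150X 3dpMI, 594 CPM (531 to 663) in WT 3dpMI, 361 CPM (288 to 447) in Q150X homeostasis and 383 CPM (260 to 543) in WT homeostasis. The injury ratio was 2.03 (1.59 to 2.62) in Q150X and 1.55 (1.07 to 2.32) in WT, where 18.3% and 24% of genes were past 1.5-fold higher. Vascular endothelial nuclei of the same libraries had Col5a2 at 188, 134, 73.7 and 12.4 CPM, lower than endocardial nuclei in each library. That class leaves out cluster 11, which scored best for vascular endothelium but stayed unnamed. All 9 vascular endothelial markers were detected in cluster 11 of each library. Its Col5a2 was at 316, 243, 184 and 85.1 CPM in the same order, the last on 5 UMIs. These values lay above those of the vascular endothelial class and below those of endocardial nuclei in each library. Fibroblast markers stood in endocardial nuclei at 47.7% and 41.1% of their fibroblast level in the Q150X and WT 3dpMI libraries. Col5a2 was at 0.701 and 0.951 times what fibroblast RNA spread at that share would give. In the Q150X and WT homeostasis libraries Col5a2 was at 1.68 and 1.53 times the level reckoned in the same way. Cdh11, one of the fibroblast markers, is also a leading gene of the endocardial cluster, so the share does not measure spread RNA alone. Whether the Col5a2 levels were endocardial expression was not tested. T or NK nuclei of Q150X 3dpMI had Col5a2 at 770 CPM (669 to 882), overlapping the endocardial interval. Schwann-like nuclei, the glia of cardiac nerves, had Col5a3 at 144, 284, 460 and 328 CPM and Col5a2 at 1502, 720, 427 and 524 CPM, but on only 14, 47, 26 and 11 nuclei.

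Macrophages, vascular endothelial cells and cardiomyocytes also held collagen UMIs. Macrophage Col1a1 was at 565 CPM (547 to 584) in Q150X 3dpMI, 363 CPM (342 to 384) in WT 3dpMI, 48.9 CPM in Q150X homeostasis and 23.1 CPM in WT homeostasis. The proportions of the chains in these classes were not those of fibroblasts. For each Col1a1 UMI, fibroblasts held 1.41 Col1a2 UMIs in Q150X 3dpMI and 1.36 in WT 3dpMI, whereas macrophages held 0.607 and 0.57, vascular endothelial nuclei 0.604 and 0.607, and cardiomyocytes 0.567 and 0.676.

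The same classes were poor in the type V chains relative to Col1a1. Col5a1 per Col1a1 UMI was 1.1 and 1.22 in fibroblasts of the Q150X and WT 3dpMI libraries, against 0.247 and 0.249 in macrophages and 0.224 and 0.276 in vascular endothelium. Fibroblast markers stood in macrophages at 6.94% of their fibroblast level in Q150X 3dpMI and 6.48% in WT 3dpMI. Fibroblast RNA spread at that level would give 103 and 84.9 CPM of Col1a1, and the observed values were 5.47 and 4.27 times that; for Col5a1 the observed values were 1.22 and 0.872 times the 114 and 103 CPM it would give. The same comparison gave 2.36 and 1.79 for Col1a2, 2.95 and 2.75 for Col3a1 and 0.906 and 0.892 for Col5a2. Col5a1 and Col5a2 UMIs in macrophages were thus near the level reckoned for spread fibroblast RNA, and whether any of them was expression was not tested. Those of Col1a1, Col1a2 and Col3a1 exceeded that level. The excess was not particular to macrophages. For Col1a1 in Q150X 3dpMI the comparison gave 6.27 in lymphatic endothelium, 6.15 in vascular endothelium and 5.07 in neutrophils. It gave 3.7 in dendritic, 2.13 in B and 1.57 in T or NK nuclei, and 0.655, 0.649 and 0.467 in pericytes, endocardial nuclei and cardiomyocytes. Whether the excess in any class was made in its nuclei or came from free RNA with other proportions was not tested. Col24a1 per Col1a1 UMI was 0.0753 and 0.071 in fibroblasts and 0.00381 and 0.00436 in macrophages.

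**Figure D4:**
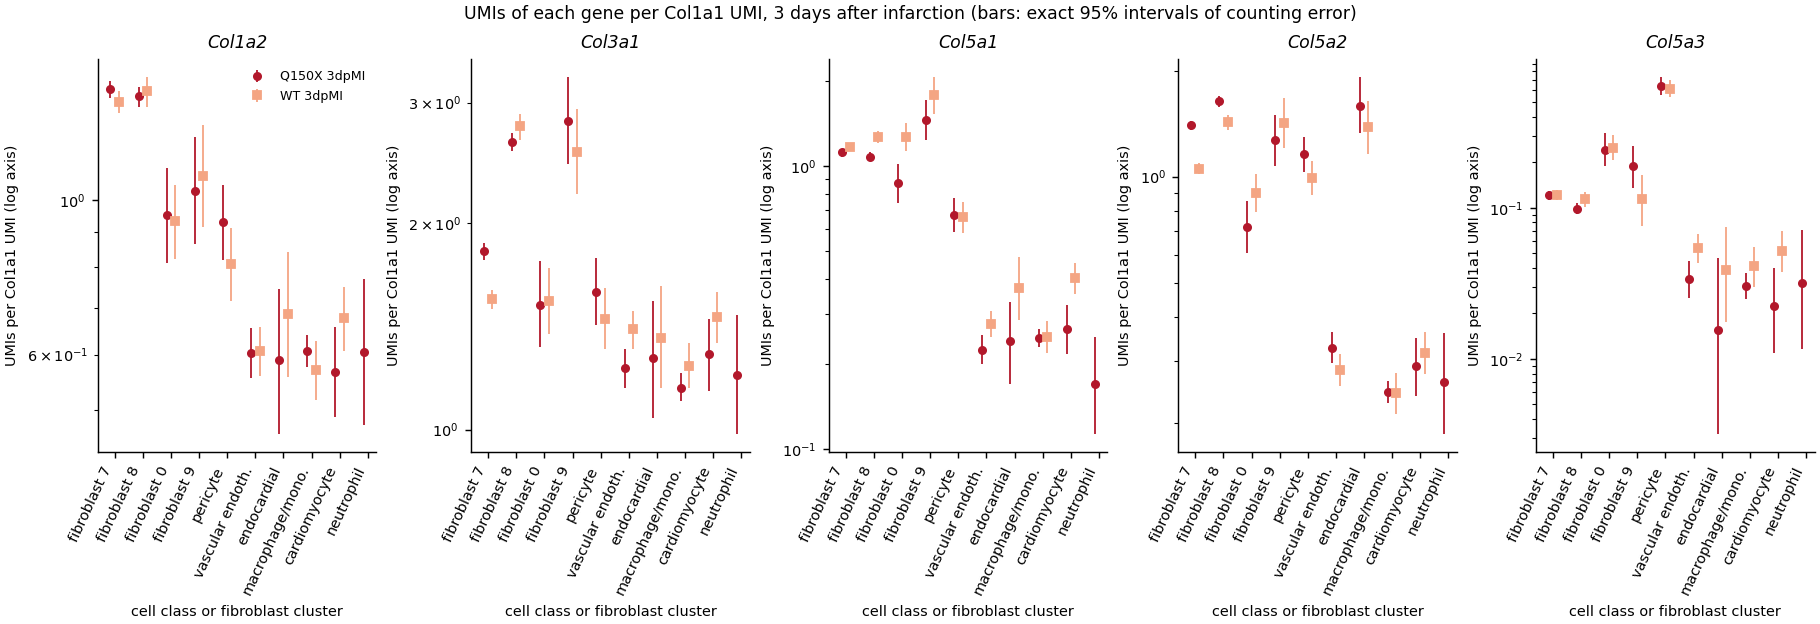
UMIs of Col1a2, Col3a1 and the type V chains per Col1a1 UMI in the 3dpMI libraries, on a log axis, by cell class and fibroblast cluster, with exact 95% intervals. Col1a2 lies between 0.567 and 0.676 in macrophages, vascular endothelium and cardiomyocytes, well below the activated clusters 7 and 8, and Col5a3 stands highest in pericytes, at 0.64 and 0.613.

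The genes that make, modify and break down collagen were followed in fibroblasts through lists of 93 genes. Of the 79 with enough UMIs for the injury comparison in Q150X, 46 were past 1.5-fold higher and 11 past 1.5-fold lower after infarction, and of 78 in WT, 42 were higher and 9 lower, beside the shares of 32.6% and 37.1% higher and 12.1% and 8.99% lower over all genes. Ratios of single list genes are 3dpMI over homeostasis in fibroblasts. Procollagen folding and modification had 14 of 20 higher and 1 lower in Q150X and 13 of 20 higher and 2 lower in WT. P4ha3, a catalytic subunit of the prolyl hydroxylase that stabilises the triple helix, was at least 109-fold higher in Q150X, with 972 UMIs at 3dpMI and 0 at homeostasis, and 66.8-fold (11.9 to 2647) higher in WT, with 374 UMIs and 1 UMI. Serpinh1, the collagen chaperone of the endoplasmic reticulum, was at 5.43 in WT, and Plod3, a lysyl hydroxylase, at 7.33. Colgalt2, which adds galactose to hydroxylysine, went the other way, at 0.169 in Q150X and 0.256 in WT.

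Enzymes that trim and cross-link the secreted chains were past 1.5-fold higher for 6 of 13 genes in Q150X and 8 of 13 in WT, with 2 and 1 lower. Lox, the lysyl oxidase that starts cross-links, was at 16.3 (11.7 to 23.3) in Q150X and 21.7 (11 to 50.3) in WT, and Loxl3 at 9.53 and 5.76. Tll2, a relative of the procollagen C-proteinase, was at 0.17 and 0.654. Breakdown genes were mixed, with 3 of 7 higher in each genotype and 3 lower in Q150X and 2 in WT: Timp1, a protease inhibitor, was at 54 (27.3 to 125) and 47.7 (16.3 to 232), and Mmp14, a membrane collagenase, at 2.53 and 2.69, while Mmp2, a gelatinase, was at 0.472 and 0.555.

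Among the 16 fibril-associated genes 10 were higher and 4 lower in each genotype. Fn1, the fibronectin on which collagen fibrils assemble, was at 61 (48.3 to 78.1) in Q150X and 31.3 in WT, and Col12a1, a collagen that coats fibrils, at 44.9 and 21.2. Eln, the elastin gene, was at 0.186 and 0.267, and Tnxb, a tenascin that binds fibrils, at 0.19 and 0.452. Col27a1, another fibrillar chain, was at 3.72 and 3.55. Receptors had 5 of 8 higher in Q150X and 2 of 8 in WT and none lower, with the discoidin receptor Ddr1 at 2.04 and 2.08. Regulators of transcription had 6 of 13 higher and 1 lower in Q150X and 5 of 13 higher in WT, led by Runx1 at 22.2 (19 to 26.2) and 23.7 (17.1 to 33.9) and by Meox1, a homeobox factor of activated fibroblasts, at 3.06 and 3.51.

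**Figure D5:**
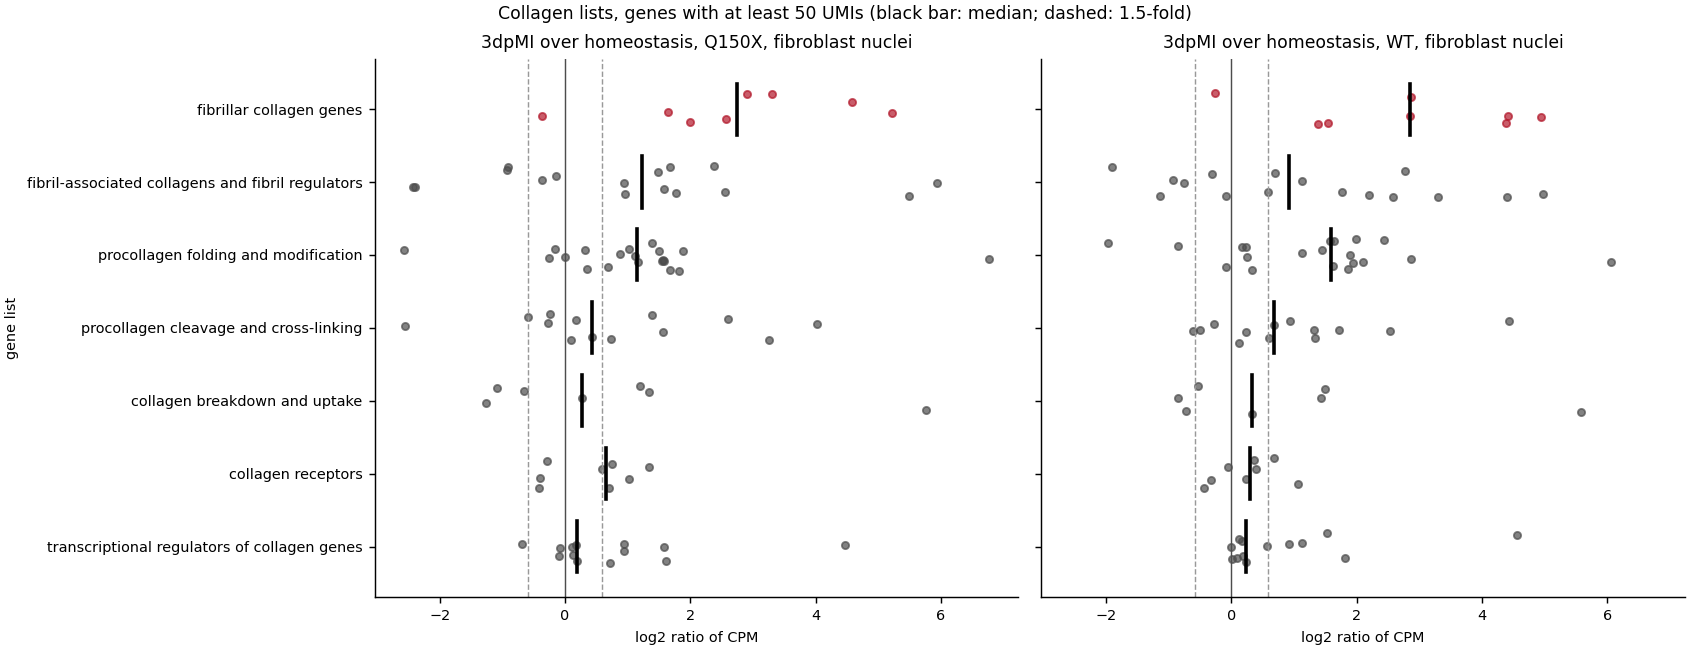
Log2 ratios of 3dpMI over homeostasis in fibroblasts for the genes of each collagen list, in Q150X (left) and WT (right), 1 point per gene with at least 50 UMIs and a gene without UMIs at homeostasis set at 3 UMIs; black bars are medians and dashed lines mark 1.5-fold. The fibrillar genes, with medians of 2.74 and 2.86, lie furthest to the right of the lists drawn, and the medians of the folding and fibril-associated genes lie next, and Col5a3 is the fibrillar gene left of 0.

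Between genotypes fewer list genes passed 1.5-fold. After infarction 5 of 81 genes were past 1.5-fold higher in Q150X and 5 lower, against 4.81% and 4.46% of all genes. Those higher included Aspn, a small proteoglycan that binds collagen, at 2.15 (2.01 to 2.31), P4ha3 at 1.94 (1.72 to 2.19) and Runx1 at 1.6 (1.54 to 1.65), and those lower included Tnxb at 0.406 and Timp3 at 0.651. At homeostasis 14 of 68 genes were past 1.5-fold higher in Q150X and 1 was lower, against 10.8% and 2.19% of all genes. These included Plod3 at 2.77, Bgn, the proteoglycan biglycan, at 2.36 (1.82 to 3.08), Colgalt1 at 2.17, Pcolce, the enhancer of procollagen C-proteinase, at 1.96 and Serpinh1 at 1.81, and the 1 lower gene was the integrin Itga2 at 0.477.

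Over 34 units, each a class or fibroblast cluster in 1 library with at least 50 nuclei, the members were set against each other and against other genes by Pearson's r of log2(CPM + 10). Units of a library share their free RNA and depth, and r is given as a description. Col1a1 and Col3a1 were at 0.96, as were Col1a2 and Col3a1, and Col5a1 and Col5a2 at 0.86, while Col1a1 and Col5a3 were at 0.31 and Col11a1 and Col24a1 at 0.75. The genes most like Col1a1 were Timp1 at 0.94, Lgals1 at 0.92 and Tnc at 0.91, those most like Col3a1 were Postn and Lox at 0.90, and those most like Col5a2 were Fstl1 at 0.96 and Fbn1 at 0.91. Col5a3 had another set of neighbours, Robo1 at 0.93 and Pla1a and Cygb at 0.91. Col24a1 was most like Gcnt4 at 0.88 and P4ha3 at 0.85.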

How the data were processed

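The authors deposited, for each library, the UMI count of every gene in every nucleus, without normalization. Per the file headers, Cell Ranger 7.1.0 made them; Scanpy and the build GRCm39 are named in the submitters' processing notes. Nuclei with at least 500 UMIs, at least 300 genes and at most 10% mitochondrial UMIs were kept. Doublets were called with Scrublet; where its automatic cut marked under 0.5% (Q150X homeostasis and WT 3dpMI), the nuclei with the highest scores were removed, 0.8% per 1000 nuclei. Counts were log-normalised and clustered jointly (2000 variable genes without the members, 30 components, 15 neighbours, Leiden resolution 1; 27 clusters), and clusters were named by marker lists with Scanpy 1.11.5 in Python 3.11.15. UMIs were summed by class and library and given as CPM with exact Poisson 95% intervals; ratios have exact conditional binomial intervals and shares exact Clopper-Pearson ones, all for counting error only. UMIs are molecules, but nuclei of a library are not replicates. Ratios were read where the 2 libraries together held at least 50 UMIs of a gene, and a gene at 0 was bounded with 3 counts. The ratio and its counting interval were tested on simulated class sums, which did not cover doublet calling, clustering, naming or the estimate of spread RNA. Genes outside the members were named from the 3 highest and 3 lowest ratios of each list and the 3 closest by r among genes with at least 200 UMIs. Members and lists were chosen with earlier results of these data known. The equal-share weighting of fibroblast clusters, in which a cluster has the same share in both libraries compared, was chosen after seeing the data. Promoters are RefSeq's on GRCm38.p6, another build than that of the counts, and no coordinate was carried between builds.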

Additional observations from a re-analysis of the deposited data

How the results depend on the processing

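Of 894 alternative values for 88 ratios of single members, 738 stayed within counting error of the reported value, 145 moved by more than that and 11 turned round. With only cluster 0, Col5a2 after injury in WT fibroblasts was 0.775 (0.909 with equal cluster shares) in place of 2.62. Col24a1 in Q150X was 0.889 in place of 23.8, on 2 UMIs at 3dpMI and 14 UMIs at homeostasis. Col11a1 and Col24a1 held too few UMIs in cluster 0 to be counted. Members past 1.5-fold higher after injury then numbered 3 in each genotype in place of 7, with 1 lower in WT. Equal shares also gave 1 lower in WT. Scaled to the median ratio, 1 member (Col5a3, 0.649) was lower in Q150X. Clustering libraries separately gave Col5a1 0.867 and Col5a2 0.921 after injury in Q150X vascular endothelium, in place of 2.52 and 2.54. In Q150X macrophages, resolution 2 and separate clustering gave Col5a1 0.711 and 0.715 in place of 1.96, Col5a2 0.952 and 0.769 in place of 3.11, and Col5a3 0.211 and 0.172 in place of 3.88. At homeostasis those main macrophage ratios rest on 16 Col5a1, 10 Col5a2 and 1 Col5a3 UMIs. The cause of these changes was not tested. Between genotypes, members past 1.5-fold higher numbered 2 at homeostasis with at least 1000 UMIs per nucleus (main 1; Col1a2 at 1.54), and at 3dpMI 1 with thinning (Col5a2 at 1.51) and 2 with nuclei weighted equally (Col5a2 at 1.58 and Col11a1 at 1.69; main 0). Col1a1 at homeostasis stayed between 2.33 and 2.66. List counts at 2-fold were 5 higher at homeostasis (main 14), 1 higher and 2 lower at 3dpMI (main 5 and 5), and 6 and 3 lower after injury in Q150X and WT (main 11 and 9). With at least 20 UMIs or 1 UMI, 2 and 7 list genes were lower at homeostasis (main 1), and with at least 1 UMI 9 were higher at 3dpMI. No paired analysis was possible because each group has 1 library. Depth limits Col11a1 and Col24a1 at homeostasis, where 1 to 16 fibroblast UMIs stand behind a value.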
